A study of Mus musculus with 8 samples.

Results

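Among the 15799 peaks of trimethylated lysine 4 of histone H3 (H3K4me3) called in non-treated (NT) D1 dendritic cells, 2210 lay far from any annotated promoter and were found again after stimulation. A peak was taken when it overlapped, by at least 1 bp, a peak in both the curdlan and the curdlan + FK506 lists, and when its nearest edge was more than 5 kb from every annotated transcription start site (TSS) of mm9. These stable TSS-distal peaks made up 14.0% of the NT list (95% Wilson interval 13.5 to 14.5). They covered 4.78 Mb, held 704229 tags (4.23% of all NT tags) and had a median length of 1885.5 bp. Of these peaks, 60.4% were intergenic and 17.6% held a summit of an NFATc2 peak. In what follows they are compared with 11192 stable peaks whose edge lay within 1 kb of a TSS, and with 1062 NT peaks that were also more than 5 kb from a TSS but were missing from at least 1 of the other lists. A further 624 stable peaks lay 1 to 5 kb from a TSS and are given beside them where stated.

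D1 is a long-term line of splenic dendritic cells from C57BL/6 mice. H3K4me3 was measured in NT cells, in cells given 10 μg/ml curdlan for 2 h and in cells given curdlan with FK506. Binding of NFATc2 (NFAT1 in the labels) was measured separately, in D1 cells carrying a lentiviral NFATc2 with a V5 tag, after 30 min of curdlan at 10 μg/ml. Each condition was 1 chromatin immunoprecipitation (ChIP) library and 1 input library, so that no spread between replicates exists, no test between conditions was made, and all intervals cover counting error only. The H3K4me3 libraries held 16662316 (NT), 21289349 (curdlan) and 19468498 (curdlan + FK506) ChIP tags, against 12085435, 9309800 and 9917958 input tags, and the NFATc2 library held 14377535 ChIP tags. Of 12 dendritic cell markers, 11 had an H3K4me3 peak within 1 kb of a TSS in each of the 3 lists, the exception being Flt3, whereas 0 of 5 T cell, 0 of 3 B cell and 0 of 4 fibroblast markers had one. ChIP was made on many cells at once, so that fewer marked cells and less mark per cell cannot be told apart.

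H3K4me3 is laid down by the SET1 and MLL methyltransferase complexes and is found mainly at the start sites of genes that are active or poised, where CpG-rich sequence favours its deposition. Away from annotated starts it can mark promoters that are not annotated, and it can occur at lower levels at active enhancers. Curdlan is a fungal β-glucan bound by dectin-1, whose signalling raises calcium and activates the phosphatase calcineurin. Calcineurin dephosphorylates NFATc2, which then enters the nucleus and binds the core GGAAA, often beside AP-1, and FK506 blocks calcineurin.

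The 151 bases at the NFATc2 summit are shown first for stable TSS-distal peaks with strong NFATc2 peaks, together with the one upstream of Egr3, because these places joined NFATc2 binding to the mark. They are read from the mm9 assembly (NCBI build 37, plus strand, 5′ to 3′) and named after the nearest protein-coding gene. Capitals mark GGAAAA or its complement TTTTCC, and the AP-1 sequence TGANTCA.
D5Ertd579e, chr5:37103303-37103453: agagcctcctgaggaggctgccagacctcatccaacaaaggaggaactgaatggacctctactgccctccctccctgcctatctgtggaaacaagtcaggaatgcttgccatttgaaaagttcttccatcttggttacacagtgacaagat
Rfk, chr19:17460040-17460190: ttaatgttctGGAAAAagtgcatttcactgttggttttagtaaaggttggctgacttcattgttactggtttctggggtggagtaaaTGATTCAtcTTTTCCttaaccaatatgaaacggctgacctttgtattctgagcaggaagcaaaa
1700026D08Rik, chr7:90976688-90976838: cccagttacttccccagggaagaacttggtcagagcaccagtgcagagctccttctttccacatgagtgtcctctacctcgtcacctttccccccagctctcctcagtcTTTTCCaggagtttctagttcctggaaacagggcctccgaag
Gm4799, chr10:82397330-82397480: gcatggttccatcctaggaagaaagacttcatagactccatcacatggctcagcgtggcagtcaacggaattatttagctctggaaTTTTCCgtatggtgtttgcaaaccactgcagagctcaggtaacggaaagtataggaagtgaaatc
Edn1, chr13:42349579-42349729: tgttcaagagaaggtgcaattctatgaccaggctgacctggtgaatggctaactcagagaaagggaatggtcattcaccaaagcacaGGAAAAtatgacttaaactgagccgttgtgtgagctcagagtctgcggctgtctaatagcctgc
Egr3, chr14:70466054-70466204: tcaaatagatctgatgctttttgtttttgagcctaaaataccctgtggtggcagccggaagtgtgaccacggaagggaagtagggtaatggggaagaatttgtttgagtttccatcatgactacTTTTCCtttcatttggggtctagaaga
The window near Rfk held 2 GGAAAA and 1 TGANTCA, and those near 1700026D08Rik, Gm4799, Edn1 and Egr3 held 1 GGAAAA each. The one near D5Ertd579e, with the most NFATc2 tags, held neither of these sequences. It did hold the shorter core GGAAA, which is not marked in these windows.

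The 151 bases at the NT H3K4me3 summit are shown for peaks with several CpGs there and for peaks with none, with CG in capitals. The first, upstream of Nr4a1, had the highest ratio of CPM between curdlan and NT among peaks that matched 1 peak in each other list. The peaks near Pim1 and Lrp12 were among the 10 with the most NT tags, and the one near Bcl6 was the strongest near a gene of the myeloid transcription factor list.
Nr4a1, chr15:101084301-101084451: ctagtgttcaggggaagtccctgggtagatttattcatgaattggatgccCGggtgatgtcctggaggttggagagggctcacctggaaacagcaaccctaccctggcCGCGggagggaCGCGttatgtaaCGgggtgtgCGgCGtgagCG
Pim1, chr17:29571388-29571538: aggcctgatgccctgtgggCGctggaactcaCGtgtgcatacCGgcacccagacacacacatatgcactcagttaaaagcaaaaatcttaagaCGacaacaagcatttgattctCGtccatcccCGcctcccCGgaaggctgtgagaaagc
Bcl6, chr16:24012848-24012998: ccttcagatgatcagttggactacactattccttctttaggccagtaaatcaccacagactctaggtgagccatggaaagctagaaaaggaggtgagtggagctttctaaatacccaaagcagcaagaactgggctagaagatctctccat
Lrp12, chr15:39794789-39794939: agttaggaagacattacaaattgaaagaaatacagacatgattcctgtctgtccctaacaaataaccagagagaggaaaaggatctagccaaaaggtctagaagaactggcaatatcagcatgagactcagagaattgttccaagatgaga
These windows held 9, 7, 0 and 0 CG dinucleotides respectively. Of the 2 windows with CpGs, the Nr4a1 peak was weak in NT cells and the Pim1 peak contained a start of the RefSeq annotation. The counts hold for 151 bases only, and in 300 bp at the same summit the Bcl6 peak had 2 CpGs.

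The stable TSS-distal peaks were shorter and weaker than peaks at TSSs, and longer and stronger than the distal peaks missing from another list. Their lengths had quartiles of 1484.5 and 2476.75 bp and ran from 486 to 16038 bp, against a median of 2700 bp at TSSs and 1416.5 bp for the distal peaks that were not stable. They held a median of 204 tags in NT cells (quartiles 121 and 368, range 19 to 3833), against 628 at TSSs and 80 in the other distal peaks. The median of tags per kb was 105 for stable TSS-distal peaks, 234 at TSSs and 54.9 for distal peaks that were not stable. Fold enrichment, the authors' ratio of tags in a peak to those predicted from the input, had medians of 18.9, 41.7 and 10.1 in the same order. A call in all 3 lists was part of the rule and itself favours longer and stronger peaks. The differences from the distal peaks that were not stable were thus partly set by the rule. The 3 distributions overlapped widely, as the histograms of length and tags show. The stable peaks 1 to 5 kb from a TSS, which are not drawn, were close to the stable TSS-distal peaks. Their medians were 1882.5 bp, 214 tags and a fold enrichment of 20.5.

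**Figure D1:**
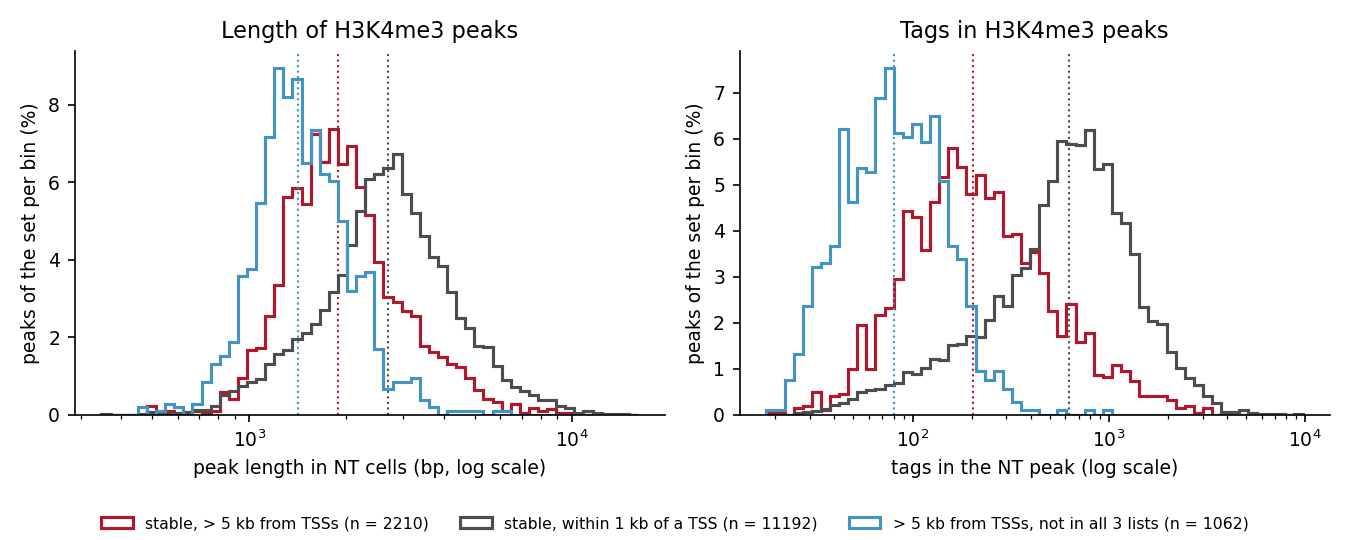
Length in bp and tags of NT H3K4me3 peaks, as the percentage of each set per bin on log axes, with dotted lines at the medians. Stable TSS-distal peaks (red, median 1885.5 bp and 204 tags) lay between stable peaks within 1 kb of a TSS (grey, 2700 bp and 628 tags) and distal peaks missing from another list (blue, 1416.5 bp and 80 tags).

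In the other libraries the same places had a similar size. The median length of the overlapping peaks was 1919.5 bp with curdlan and 1889.5 bp with curdlan + FK506, and the median count of tags was 220 (range 34 to 4077) and 199 (range 26 to 4831). Scaled to the ChIP total of each library (CPM), these medians were 12.2 in NT, 10.3 with curdlan and 10.2 with curdlan + FK506. The summit moved by a median of 35 bp between NT and curdlan and by 32 bp between NT and curdlan + FK506. An NT false discovery rate above 5% was given by the authors' peak caller to 153 stable TSS-distal peaks (6.92%), against 0.831% of peaks at TSSs and 51.3% of distal peaks that were not stable. The last of these differences was also partly set by the rule. Peaks named below are among the 153. They include those near Iqgap1 (19.1%), Flt3 (16.5%), Fosb (11.0%) and Ier3 (6.04%). The same holds for the first Edn1 peak (7.3%), the second Bcl6 peak (5.81%) and the second Fos peak (5.51%). In all, 67.5% (65.9 to 69.1) of the 3272 NT peaks more than 5 kb from a TSS were found in both other lists, against 96.6% (96.3 to 96.9) of those within 1 kb. Among the 1062 that were not, 530 were in neither of the other lists, 282 were in the curdlan list alone and 250 in the curdlan + FK506 list alone.

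The 10 peaks with the most NT tags were all above 997 tags, the upper quartile of peaks at TSSs. Here and below, peaks are named after the nearest protein-coding gene. For 643 of the 2210 peaks (29.1%) the nearest gene of any type was not protein-coding. The longest and strongest, at chr13:63340249-63356286 in an exon of 2010111I01Rik, spanned 16038 bp and held 3833 tags in NT cells, 3547 after curdlan and 3417 with curdlan + FK506. The next lay in an intron of Nup153, which encodes a nuclear pore protein, with C78339 as its nearest gene by TSS (chr13:46783587-46792870). It held 3257, 2126 and 2506 tags in the same order. The third, near Zfp541 (chr7:16630691-16639508), held 3121, 2761 and 2570. These 3 peaks had no NFATc2 summit and held fewer tags with curdlan than in NT cells, although the curdlan library was the deepest.

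The fourth strongest lay 56.3 kb upstream of Pim1, which encodes a serine/threonine kinase, at chr17:29568061-29575740. It held 3033 tags in NT cells, 4051 after curdlan and 3581 with curdlan + FK506, and 2 NFATc2 summits. As CPM these were 182, 190 and 184, a range narrower than that of the raw counts. The peak 19.3 kb upstream of Lrp12, a member of the low-density lipoprotein receptor family, held 2721, 2100 and 2531. Also among the 10 strongest were those named after Gm839, Bmp2k (a kinase), Rfk (riboflavin kinase) and Sh3pxd2a (a scaffold of podosomes), with 2353 to 2577 NT tags. The starts of Gm839 and Bmp2k lay 69.7 and 76.7 kb away, and genes of other types had nearer starts. The other peaks among the 5 longest were nearest to Lama4, 9940 bp long, and Lilrb4, 8883 bp long. Across the 2210 peaks, tags and length moved together in NT (Spearman's rho 0.83), while tags and distance to the TSS did not (−0.05). Both describe regions of 1 library, which share its depth.

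Distances to the nearest TSS covered a wide range. The nearest edge lay 5 to 10 kb from a TSS for 523 peaks (23.7%), 10 to 20 kb for 600 (27.1%), 20 to 50 kb for 641 (29.0%), 50 to 100 kb for 285 (12.9%) and more than 100 kb for 161 (7.29%). The median was 19586 bp and the farthest peak was 796283 bp away. Median NT tags changed little over this range, from 209 at 5 to 10 kb and 206 at 10 to 50 kb to 189.5 beyond 50 kb. Just inside the limit were the peaks near Gltp and Hes2, both at 5012 bp, and Nipa2, at 5014 bp, with 223, 200 and 515 NT tags. Just outside it were those near Lta4h at 4993 bp, Sh2b3 at 4964 bp and Proc at 4960 bp, with 571, 338 and 80. For 25 stable TSS-distal peaks (1.13%) an overlapping peak of another list reached to within 5 kb of a TSS.

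By the NT summit, 90 peaks (4.07%) lay in an exon, 785 (35.5%) in an intron and 1335 (60.4%, 58.4 to 62.4) between genes. The corresponding shares were 27.5%, 58.6% and 13.9% for peaks at TSSs, as the rule would give, and 2.92%, 41.8% and 55.3% for distal peaks that were not stable. The share within a gene was therefore 39.6% (37.6 to 41.6) for stable distal peaks and 44.7% (41.8 to 47.7) for the others, and these intervals did not overlap. Without the stable TSS-distal peaks within 5 kb of a RefSeq start their share was 43.1% (40.8 to 45.4), and the intervals overlapped. Such peaks were not taken out of the other distal peaks, so the separation under a like filter was not tested. A protein-coding gene held 820 of the summits, a coding exon held 45, and 66 lay within 1 kb of a transcript end. Of the intergenic peaks, 799 (59.9%) were upstream of their nearest TSS. Intergenic peaks held slightly more tags than those within genes, with medians of 212 and 196, and their lengths were alike, with medians of 1876 and 1903 bp.

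**Figure D2:**
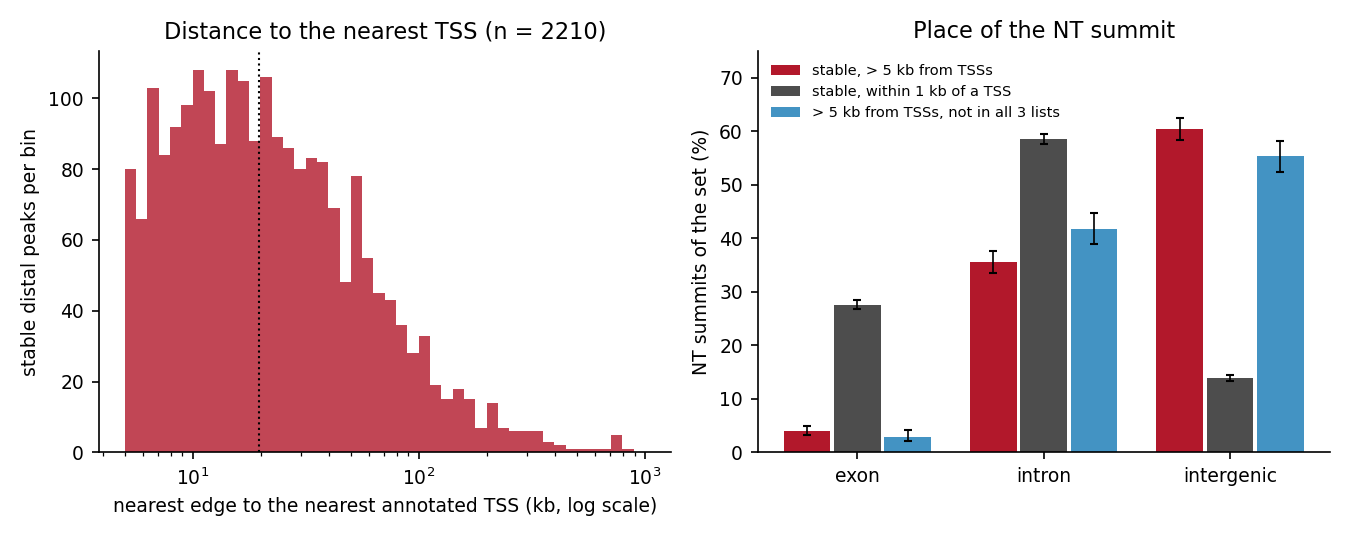
Left, distance in kb from the nearest edge of each of the 2210 stable TSS-distal peaks to the nearest annotated TSS, as peaks per bin on a log axis, with a dotted line at the median of 19.6 kb. Right, percentage of NT summits in exons, introns and between genes for the same peaks (red), stable peaks within 1 kb of a TSS (grey) and distal peaks missing from another list (blue), with 95% Wilson intervals. Red bars were highest between genes, at 60.4%.

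The annotation used for the rule leaves out some starts that a later one has. When 31872 RefSeq promoter sequences were placed on mm9 by an exact match, 213 stable TSS-distal peaks (9.64%) contained a RefSeq start, 258 (11.7%, 10.4 to 13.1) lay within 1 kb of one and 358 (16.2%) within 5 kb. The share within 1 kb was 4.61% for distal peaks that were not stable. It was higher among stronger peaks, at 5.61%, 8.70%, 10.9% and 21.5% over 4 classes of equal size from the fewest to the most NT tags. The 258 peaks held a median of 336.5 tags over 2191 bp. The strong peaks near Zfp541, Pim1, Bmp2k, Gm839, Lama4 and Lilrb4 each contained a RefSeq start. Other peaks named below did so too, among them those near Gm4799, Bend4 and Gm9953 and both near Id2. A placed start lay 194 bp from the D5Ertd579e peak and 595 bp from the Hes2 peak. For the strong peaks near C78339 and Lrp12 the nearest start that could be placed was 18741 and 77233 bp away. The annotated start of Lrp12 lay nearer than that, so a RefSeq start of this gene was not among those placed. All distances and shares here count placed starts only, and the shares can be too low for that reason. The 1852 peaks without a RefSeq start within 5 kb had a median of 191 tags over 1848.5 bp.

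In base composition the stable TSS-distal peaks lay much nearer to the other distal peaks than to promoters. In the 300 bp at the NT summit the median of G+C was 49.0%, against 56.7% at TSSs and 48.0% in distal peaks that were not stable. The ratio of observed to expected CpG had a median of 0.371, against 0.610 and 0.306. In stable peaks 1 to 5 kb from a TSS the medians of G+C and of this ratio were 51.3% and 0.406. By the criterion of G+C above 50% and a CpG ratio above 0.6, 239 windows were CpG-rich (10.8%), against 43.7% at TSSs, 3.86% in distal peaks that were not stable and 34.0% of all NT peaks. At the other end, 21 windows had no CpG at all, the Lrp12 window among them.

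CpG-rich and CpG-poor peaks far from TSSs differed in what else they held. The 239 CpG-rich peaks had a median of 272 NT tags and a fold enrichment of 29.3, against 197 and 18.0 for the 1971 others, with lengths of 1902 and 1884 bp. A RefSeq start lay within 1 kb of 25.1% (20.03 to 30.97) of them and of 10.0% (8.80 to 11.5) of the others. They were within a gene in 23.0% (18.1 to 28.8) and held an NFATc2 summit in 8.79% (5.82 to 13.1) of cases, against 41.6% (39.4 to 43.8) and 18.7% (17.0 to 20.5) for the others. In each of these 3 shares the intervals of the 2 kinds of peak were apart. Searched on both strands in the same 300 bp, GGAAAA was in 27.9% of stable TSS-distal peaks and 25.5% of all NT peaks, TGANTCA in 7.65% (6.61 to 8.83) and 5.56% (5.22 to 5.93), and GAGGAAGT, a sequence bound by the myeloid factor PU.1, in 2.58% and 2.10%. For TGANTCA, which AP-1 binds, these intervals were apart, and the shares were 4.54% at TSSs and 10.4% in distal peaks that were not stable.

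**Figure D3:**
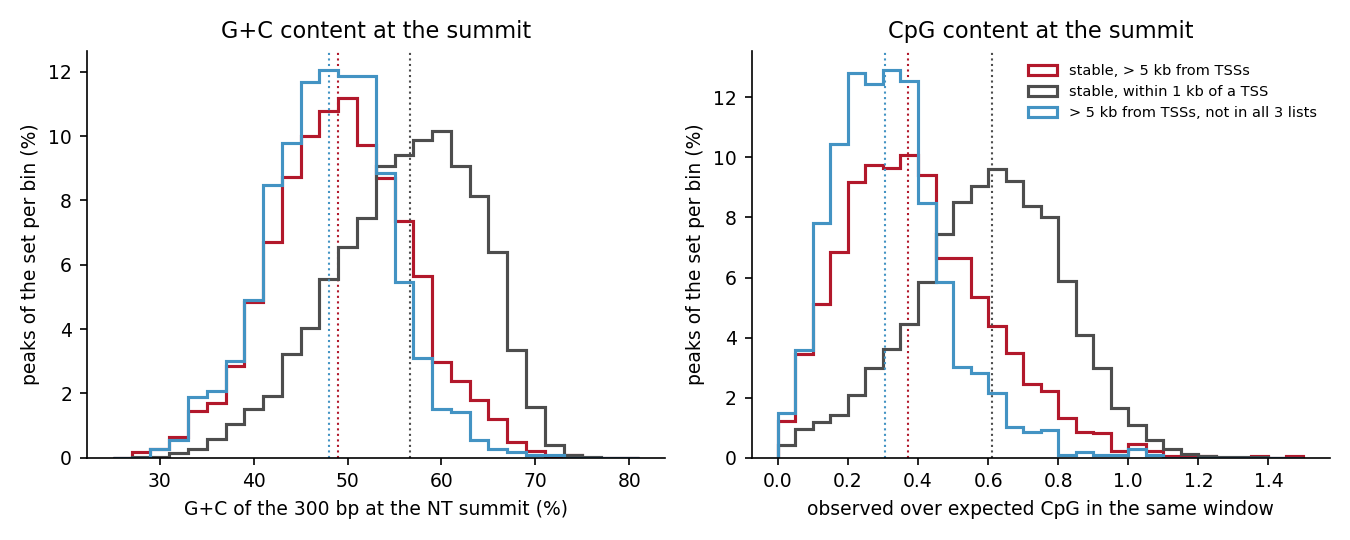
G+C content (left, %) and observed over expected CpG (right) in 300 bp at the NT summit, as the percentage of each set per bin, with dotted lines at the medians. Stable TSS-distal peaks (red, medians 49.0% and 0.371) and distal peaks missing from another list (blue, 48.0% and 0.306) lay to the left of stable peaks within 1 kb of a TSS (grey, 56.7% and 0.610).

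NFATc2 summits fell inside 389 of the 2210 peaks (17.6%, 16.1 to 19.2), and 9 of these held 2, so that 398 of the 9438 NFATc2 summits were in stable TSS-distal peaks. Peaks at TSSs held one in 11.9% of cases and distal peaks that were not stable in 21.4% (19.0 to 23.9). Per Mb of peak there were 83.2 summits in stable TSS-distal peaks, 42.5 at TSSs and 139 in the distal peaks that were not stable. At a stricter NFATc2 threshold of 1e-10 the shares were 10.5%, 5.83% and 11.96%. Stable peaks 1 to 5 kb from a TSS were close to the stable TSS-distal peaks here too. A summit lay in 16.8% (14.1 to 19.96) of them, and they held 85.2 summits per Mb. At the stricter threshold their share was 10.6%. The contrast with peaks at TSSs was thus not limited to peaks more than 5 kb away. NFATc2 was measured after curdlan and in tagged cells, whereas these H3K4me3 peaks are those of NT cells.

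Longer peaks held NFATc2 more often, both far from TSSs and at TSSs. When stable TSS-distal peaks were put in 4 classes of equal number by length, the share with a summit was, from the shortest to the longest, 5.97% (4.28 to 8.26), 13.9% (11.3 to 17.1), 16.8% (14.0 to 20.2) and 33.6% (29.8 to 37.7). Peaks at TSSs within the same limits of length held one in 2.57% (1.83 to 3.58), 5.10% (3.94 to 6.58), 6.73% (5.78 to 7.83) and 16.7% (15.8 to 17.6). The intervals were apart in all 4 classes, within which lengths were not matched further. By NT tags the same order was seen, with 5.97%, 17.9%, 20.3% and 26.2% in stable TSS-distal peaks and 1.98%, 5.38%, 7.12% and 14.1% at TSSs. A longer peak covers more bases in which a summit can fall. Per Mb, stable TSS-distal peaks held 48.2, 82.8, 79.4 and 97.7 summits by length. By tags they held 44.9, 101.6, 92.6 and 82.4 per Mb, so the order of the shares was not kept. At TSSs it was kept, with 21.9, 30.1, 30.6 and 47.2 by length and 16.4, 34.5, 36.2 and 44.3 by tags. The share with a summit differed little with distance from the TSS, at 15.1% (12.3 to 18.4) at 5 to 10 kb, 18.5% (16.4 to 20.7) at 10 to 50 kb and 18.2% (14.9 to 22.0) beyond 50 kb. Peaks in genes and between genes were also alike, with 18.2% (15.8 to 20.9) and 17.2% (15.3 to 19.3).

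**Figure D4:**
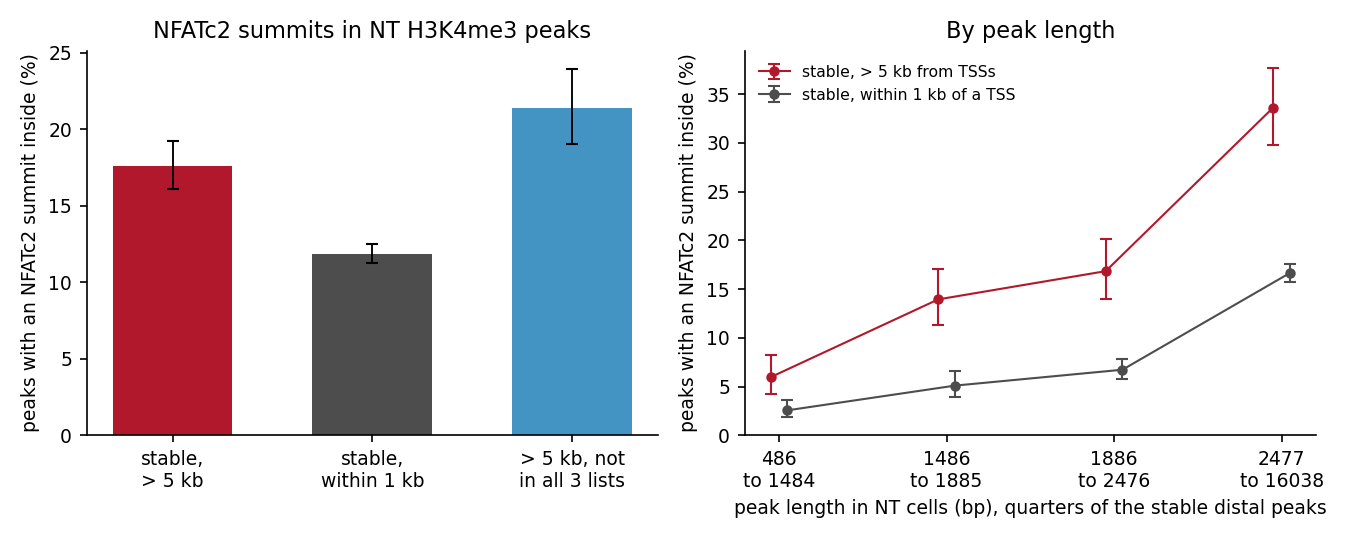
Percentage of NT H3K4me3 peaks with an NFATc2 summit inside, with 95% Wilson intervals, for the 3 sets (left) and by length in bp, in 4 equal classes of the stable TSS-distal peaks (right). Stable TSS-distal peaks (red) were at 17.6% overall and went from 5.97% to 33.6% with length, above the 2.57% to 16.7% of stable peaks within 1 kb of a TSS (grey).

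The NFATc2 peaks inside stable TSS-distal peaks had a median of 98 tags (range 19 to 589), against 63 over the whole NFATc2 list. They were also longer, with a median of 1463.5 against 1063 bp. Their median fold enrichment of 12.3 was below the 13.4 of the whole list. The median of tags was likewise 98 in stable peaks 1 to 5 kb from a TSS, 94.5 in distal peaks that were not stable and 73 at TSSs. The NFATc2 summits in stable TSS-distal peaks lay a median of 349.5 bp from the NT H3K4me3 summit, compared with 741 bp at TSSs and 242.5 bp in distal peaks that were not stable. In stable peaks 1 to 5 kb from a TSS the median was 384 bp. These distances are bounded by peak length, which differed between the sets. As a percentage of the way in from the nearest edge, the medians were more alike. They were 34.5% in stable TSS-distal peaks, 29.3% at TSSs and 35.5% in distal peaks that were not stable. Within 100 bp of the NFATc2 summit GGAAAA was found in 40.5% (35.7 to 45.3), against 49.5% at TSSs, 38.3% in distal peaks that were not stable and 45.6% of all 9438 summits. TGANTCA was found in 20.9% (17.2 to 25.1), against 15.6%, 27.8% and 21.8%, and GAGGAAGT in 10.3% (7.68 to 13.7), against 6.48%, 7.83% and 9.27%.

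The strongest NFATc2 peak of this kind, with 589 NFATc2 tags, was 16.9 kb upstream of D5Ertd579e in an H3K4me3 peak (chr5:37100992-37105334) of 757 tags in NT cells, 820 after curdlan and 489 with curdlan + FK506. A placed RefSeq start lay 194 bp from the edge of that H3K4me3 peak. The peak 12.7 kb upstream of Rfk (chr19:17454477-17461203) followed with 532 NFATc2 tags and 2482, 2144 and 1845 H3K4me3 tags. Near Gm4799 an NFATc2 peak of 449 tags lay in an H3K4me3 peak of only 114, 186 and 113 tags. The Gm4799 H3K4me3 peak contained a placed RefSeq start. An NFATc2 peak of 458 tags lay near 1700026D08Rik, one of 450 near Atrnl1, one of 410 near Bmp2k and one of 386 in an intron of Cux1, a homeobox gene. Ier3, an early response gene, had a peak 6.9 kb upstream with 414 NFATc2 tags (chr17:35950064-35953115) and 209, 374 and 188 H3K4me3 tags. Edn1, which encodes the vasoconstrictor endothelin-1, had 2 such peaks. The one at chr13:42339627-42342466 had 383 NFATc2 tags and 186, 316 and 275 H3K4me3 tags, and the one at chr13:42348876-42351612 had 381 NFATc2 tags and 304, 604 and 265 H3K4me3 tags. At Ier3 and at the second Edn1 peak the H3K4me3 tags with curdlan + FK506 were below those of NT cells.

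Being called in all 3 lists did not mean that the mark was level. Of the 2210 peaks, 2147 (97.1%) matched 1 peak in each other list that matched no other NT peak, and these were compared. Their tags in NT and curdlan had a Spearman's rho of 0.94, NT and curdlan + FK506 of 0.95 and curdlan and curdlan + FK506 of 0.98 (n = 2147 regions, in libraries that share the cell line and the regions' lengths). Log2 ratios were centred on the median over the 12688 stable peaks of any place that matched in this way, and a ratio past 1.5-fold was counted. The median before centring was 0.72 for fold enrichment of curdlan over NT and 0.28 of curdlan over curdlan + FK506, and −0.15 and 0.04 for CPM. The ratio of ChIP to input tags was 1.38 in NT, 2.29 with curdlan and 1.96 with curdlan + FK506, in the same order as fold enrichment, whereas the CPM of curdlan over NT shifted the opposite way. The part of that ratio in these shifts was not tested.

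By fold enrichment, 374 stable TSS-distal peaks (17.4%, 15.9 to 19.1) were higher with curdlan than in NT, where 15.4% of all 12688 were, and 381 (17.7%, 16.2 to 19.4) were lower, where again 15.4% were. Between curdlan and curdlan + FK506, 374 (17.4%, 15.9 to 19.1) were higher with curdlan against a background of 14.7%, and 316 (14.7%, 13.3 to 16.3) were lower against 14.7%. All but the last of these shares lay slightly above the background, which their intervals left out. The background includes the stable TSS-distal peaks, which held fewer tags than peaks at TSSs, and the part of that in the shares was not tested. The median ratios of the stable TSS-distal peaks were −0.0025 and 0.05 on the log2 scale. Tags as CPM gave fewer peaks past the same fold. With curdlan over NT, 106 (4.94%, 4.10 to 5.94) were higher against a background of 4.27%, and 152 (7.08%, 6.07 to 8.24) were lower against 2.6%. At TSSs the shares were 4.08% (3.71 to 4.48) and 1.37% (1.16 to 1.62), so that the interval for lower peaks was apart from that at promoters. With curdlan over curdlan + FK506, 30 (1.397%, 0.981 to 1.99) were higher against 0.946%, and 15 (0.699%, 0.424 to 1.15) were lower against 0.339%. The comparisons with NT and with curdlan + FK506 share the curdlan library. The 2 measures called different peaks for the most part, with 38 higher by both, 70 lower by both and 13 that were higher by one and lower by the other.

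Peaks with an NFATc2 summit were more often past 1.5-fold by CPM in both directions. With curdlan over NT, 29 of 379 (7.65%, 5.38 to 10.8) were higher and 42 (11.1%, 8.30 to 14.6) were lower, compared with 77 (4.36%, 3.50 to 5.41) and 110 (6.22%, 5.19 to 7.45) of the 1768 without one. The intervals overlapped for higher peaks and were apart for lower ones. By CPM per kb of each library's peak, 2.90% were higher and 4.49% (2.82 to 7.07) lower with a summit, against 2.83% and 3.51% (2.75 to 4.47) without, and these intervals overlapped. By fold enrichment the shares were 15.3% and 20.6% with a summit and 17.9% and 17.1% without, and there the intervals overlapped in both directions. Peaks with a summit were also longer, with a median of 2412 bp against 1807 bp, and held 283 tags against 189. The part of these differences in the shares was not tested.

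**Figure D5:**
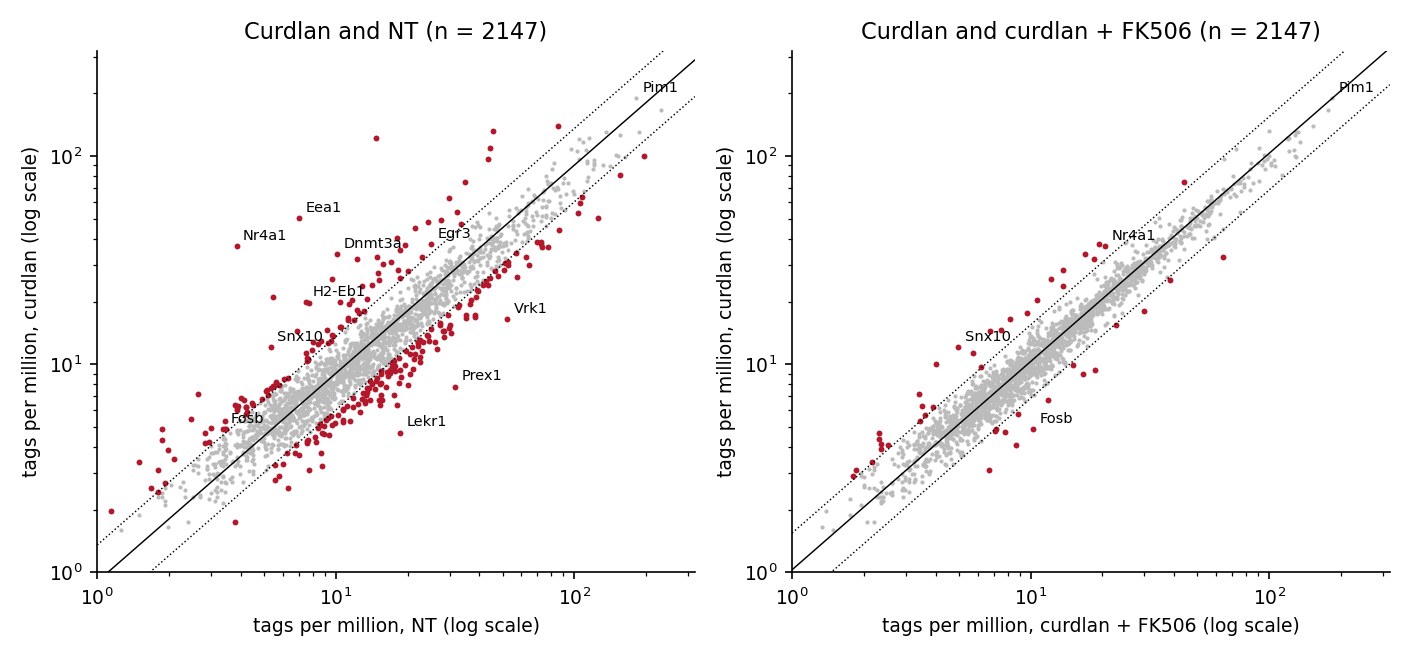
CPM (tags scaled to the ChIP total of the library) of each of 2147 stable TSS-distal peaks with curdlan against NT (left) and against curdlan + FK506 (right), on log axes, with peaks past 1.5-fold in red, the median over all stable peaks as a solid line and 1.5-fold as dotted lines. Labels give the nearest protein-coding gene. The points were more spread on the left, with 106 above and 152 below, than on the right, with 30 and 15.

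Among the matched peaks the highest ratio of curdlan to NT, by CPM and by fold enrichment alike, was 12.9 kb upstream of Nr4a1, an orphan nuclear receptor induced as an immediate early gene (chr15:101084051-101085381). It held 64 tags in NT cells, 786 after curdlan and 399 with curdlan + FK506, and its fold enrichment was 7.17, 58.4 and 39.4. Its length was 1331 bp in NT, 4194 bp with curdlan and 4396 bp with curdlan + FK506. The log2 ratio of CPM of curdlan to NT was 3.26 (exact 95% counting interval 2.90 to 3.66), and of curdlan to curdlan + FK506 0.85 (0.67 to 1.03). The level with FK506 lay between those of the other libraries. It held an NFATc2 peak of 33 tags, weak beside the median of 98. A second peak 20.7 kb upstream of Nr4a1 (chr15:101075924-101077796) held 142, 213 and 78 tags, and had the largest ratio of curdlan to curdlan + FK506 by CPM, 1.32 (0.94 to 1.71) on the log2 scale.

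Some further peaks with high or low ratios of CPM are given, picked after their values were seen. An intergenic peak 293.1 kb from Eea1, an early endosome protein gene, held 117, 1068 and 673 tags, with an NFATc2 peak of 281 tags. A peak in an intron of Iqgap1, a scaffold protein of the cytoskeleton, held 91, 448 and 395 tags, and one in an intron of Dnmt3a, a de novo DNA methyltransferase, held 169, 719 and 330. In the Dnmt3a peak the ratio of curdlan to curdlan + FK506 was 0.99 (0.80 to 1.19) and in the Iqgap1 peak 0.05 (−0.15 to 0.25).

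The 3 peaks with the lowest ratios of curdlan to NT by CPM were long in NT and shorter with curdlan. The peak 28.0 kb upstream of Prex1, a Rac exchange factor, held 529 tags in NT cells, 166 after curdlan and 153 with curdlan + FK506, and its length went from 6110 bp to 2090 and 2174 bp. In an intron of Lekr1 a peak held 310, 100 and 113 tags, and its length went from 4135 bp to 1737 and 2007 bp. A peak in an intron of Vrk1, a chromatin kinase, held 873, 350 and 308 tags and its length went from 7938 bp to 3111 and 3365 bp. In all 3 the curdlan and curdlan + FK506 libraries were close to each other, with log2 ratios of −0.01, −0.31 and 0.06 and intervals that included 0. Further peaks of this kind were named after Arhgef6 (302, 136 and 162 tags), Ahr, the aryl hydrocarbon receptor (334, 169 and 222), and Parp2 (2087, 1069 and 1035). The start of Ahr lay 206.8 kb from its peak.

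By fold enrichment, the highest ratios of curdlan to NT after Nr4a1 were at peaks near Hes2, Slc39a10, Zfp217 and Sox12, and the lowest near Batf3, Fam167b, Runx3, Mthfd1l and Trim2. Their tags moved less. The Hes2 peak had a fold enrichment of 6.88 in NT and 44.8 with curdlan, with 200 and 166 tags, and the Fam167b peak had 46.2 and 19.5, with 217 and 296 tags, so that in both peaks the measures went in opposite directions. At Runx3 both were lower with curdlan, with 29.1 and 13.45 in fold enrichment and 137 and 90 in tags. The same was seen for the extremes of curdlan over curdlan + FK506, the highest of which were near Sox12, Gm9953, Csnk1g3, Insr and Eif2s3x and the lowest near Bend4, Lpp, Nmi, Arhgap31 and Acvr2b. At Sox12 fold enrichment was 47.6 with curdlan and 10.5 with curdlan + FK506, and tags were 166 and 121. At Bend4 it was 18.2 and 58.85, and tags were 334 and 338.

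By CPM, the highest ratios of curdlan to curdlan + FK506 after the second Nr4a1 peak were at Snx10, a sorting nexin, with 89 tags in NT cells, 257 after curdlan and 97 with curdlan + FK506, and at 6330527O06Rik, with 115, 308 and 132. In both, the library with FK506 was near NT. The lowest ratios were near Dgkz, a diacylglycerol kinase gene, with 129, 66 and 130 tags, and in an exon of Ccdc21, with 114, 87 and 169. Low ratios were also seen at Fosb, a subunit of AP-1, whose upstream peak held 57, 104 and 200 tags, and an intron of Vps8, a protein of vesicle tethering, with 248, 695 and 1250. At Fosb and Vps8 the library with FK506 was the highest of the 3.

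Of the gene lists, immediate early regulators and myeloid transcription factors had the most stable TSS-distal peaks per gene. Each list is given by the genes that were the nearest protein-coding gene of at least 1 such peak, where 1751 of all 22238 protein-coding gene symbols (7.87%) were. Among 21 immediate early regulators 11 were (52.4%, 32.4 to 71.7), with 19 peaks, and among 26 dendritic and myeloid transcription factors 12 were (46.2%, 28.8 to 64.5), with 21 peaks. The shares were 17.9% (5 of 28) for antigen presentation and surface genes, 16.7% (4 of 24) for dectin-1, calcineurin and NFAT signalling, 14.0% (6 of 43) for developmental regulators and 7.84% (4 of 51) for cytokines, chemokines and receptors. The lists were not matched for the distance between neighbouring genes, which sets how many peaks a gene can be nearest to. Nor were they matched for an H3K4me3 peak at the TSS in NT cells. In the order given, 100%, 96.2%, 92.9%, 95.8%, 4.65% and 45.1% of their genes had one, against 49.0% of all protein-coding genes. Among all protein-coding genes with such a marked promoter, 10.7% were nearest to a stable TSS-distal peak.

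Of the 18 matched peaks near immediate early regulators, 6 were higher and 2 lower with curdlan by fold enrichment, where 17.4% and 17.7% of all stable TSS-distal peaks were. By CPM 4 were higher and none lower, where 4.94% and 7.08% were, with a median of 0.16 on the log2 scale against −0.06 for all stable TSS-distal peaks. Of their 19 peaks, 5 (26.3%) held NFATc2, where 17.6% of all stable TSS-distal peaks did. Egr3, a zinc finger factor induced by calcium signals, had a peak 11.8 kb upstream (chr14:70463101-70466919) with 418 tags in NT cells, 800 after curdlan and 377 with curdlan + FK506, and an NFATc2 peak of 298 tags. Its log2 ratio was 0.58 (0.41 to 0.76) to NT and 0.96 (0.78 to 1.14) to curdlan + FK506, and as at Ier3 the library with FK506 was not above NT. Around Fos, which encodes a subunit of AP-1, 3 peaks held 73, 114 and 89 tags, 104, 180 and 136, and 479, 635 and 625, and none had an NFATc2 summit. The peak 27.1 kb downstream of the start of Nfkbia, an inhibitor of NF-κB, held 562, 624 and 594 tags. The 3 peaks upstream of Tnfaip3, a further inhibitor of that pathway, held 183 to 254 tags in NT and 212 to 240 with curdlan. Jun, Nfkbiz and Nr4a3 had 2 peaks each and Ier2 had 1.

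Of the 21 peaks near myeloid transcription factors, 2 were higher and 4 lower by fold enrichment and 1 higher and 3 lower by CPM, and 4 (19.0%) held NFATc2, where 17.6% of all stable TSS-distal peaks did. Over all stable TSS-distal peaks the shares higher and lower were the same 17.4% and 17.7% by fold enrichment and 4.94% and 7.08% by CPM. The strongest was 24.0 kb upstream of Bcl6, a transcriptional repressor (chr16:24011147-24014370), with 1084, 927 and 1054 tags, and a second 147.5 kb upstream held 128, 115 and 128. Batf3, a factor needed for one subset of dendritic cells, had a peak 17.1 kb downstream of its start (chr1:192938328-192940452) with 419 tags in NT cells, 314 after curdlan and 293 with curdlan + FK506. Its fold enrichment was 27.6, 11.2 and 29.0, the lowest ratio of curdlan to NT by that measure, whereas its tags with curdlan and curdlan + FK506 were close. A second Batf3 peak, 27.5 kb downstream (chr1:192949288-192950515), went the other way by fold enrichment, with 11.4, 40.0 and 21.2, and held 94, 128 and 122 tags. In introns of Fli1, an ETS factor, 1 peak held 308, 173 and 228 tags and another held 223, 209 and 172 tags and an NFATc2 peak of 100 tags. The peaks nearest to Irf4 and Irf8, both factors of dendritic cell development, were 85.5 and 80.1 kb downstream and lay in introns of other genes. The Irf4 peak held 208, 262 and 255 tags and the Irf8 peak 85, 66 and 60. Id2, Klf4, Mef2c and Runx2 had 2, 3, 3 and 2 peaks, with 47 to 476 NT tags, and Etv6, Maf and Runx3 had 1 each.

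Near genes of the dectin-1 pathway, 5 peaks were found and 1 held NFATc2, and with curdlan over NT 2 were higher and none lower by fold enrichment, and none was past 1.5-fold in either direction by CPM. Over all stable TSS-distal peaks 17.6% held NFATc2, 17.4% and 17.7% were higher and lower by fold enrichment and 4.94% and 7.08% by CPM. Nfatc2 itself had a peak 79.1 kb downstream of its start, with 363, 401 and 330 tags. Ppp3ca, a catalytic subunit of calcineurin, had 2 intronic peaks with 75, 115 and 96 tags and with 289, 288 and 257, the second with an NFATc2 peak of 87 tags. An intron of Itpr1, a receptor that releases calcium from stores, held 409, 455 and 420 tags. The peak near Sykb, the kinase downstream of dectin-1, held 257, 224 and 226. Near cytokine and receptor genes 4 peaks were found, none with NFATc2 and none past 1.5-fold by either measure with curdlan over NT. The peak 16.3 kb upstream of Il1b, which encodes interleukin 1β, held 412, 517 and 458 tags, and those named after Cxcr4 and Il17d held 53, 52 and 60 and 102, 108 and 110. The Cxcr4 peak lay 240.3 kb upstream of that gene. Flt3, the receptor that drives dendritic cell growth and the marker without a peak at its TSS, had one in an exon 37.3 kb downstream, with 297, 276 and 272 tags. The NT false discovery rate of that Flt3 peak was 16.5%.

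Among surface and antigen presentation genes, an intron of H2-Eb1, a chain of MHC class II, held 125 tags in NT cells, 422 after curdlan and 392 with curdlan + FK506, a log2 ratio to NT of 1.402 (1.11 to 1.70). In an intron of Itgb2, the β2 integrin, a peak of 130 tags overlapped a curdlan peak of 2272 tags and a curdlan + FK506 peak of 157. It was not among the matched peaks, since that curdlan peak of 9737 bp was joined with other NT peaks. Of 2 peaks upstream of Itga4, an integrin chain, 1 held NFATc2 and 91, 167 and 115 tags and the other held 95, 83 and 84. The peaks near Ptprc and Fcgr3 held 161, 109 and 101 and 362, 326 and 284 tags. Developmental regulators had few promoters with the mark, 2 of 43 against 25 of 26 myeloid factors. They still had 10 stable TSS-distal peaks, among them 1 near Pax1 with 955, 561 and 506 tags and 3 in Pax3, a gene of muscle and neural crest development, with 224 to 324 NT tags. The other 6 were nearest to Dlx2, Lhx9, Nkx6-1 and Sox9, with 101 to 366 NT tags.

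The nearest protein-coding genes were 1751 in number, of which 1421 had 1 peak, 245 had 2 and 62 had 3. They had an H3K4me3 peak at their own TSS in 66.5% (64.2 to 68.6) of cases, against 49.0% (48.4 to 49.7) of all protein-coding genes. Put the other way, 10.7% (10.1 to 11.3) of genes with a marked promoter and 5.18% (4.79 to 5.60) of those without were nearest to such a peak. The genes with the most, picked after the counts were seen, were Zfhx3 with 9, Bcor and Olfr1324 with 7 each, and Coro2a, Psd2 and Trim27 with 6 each. The gap to the next NT peak of any kind had a median of 18.5 kb. With a limit of 12.5 kb between neighbours, 377 peaks (17.1%) stood in clusters, which were 141 pairs, 21 clusters of 3, 4 of 4, 2 of 5 and 1 of 6.

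The cluster of 6, between Wnt7b and Ppara (chr15:85464151-85503785), held 2779 tags in NT cells, 2903 after curdlan and 2580 with curdlan + FK506 and no NFATc2 summit. One of 5, within Coro2a, held 893, 851 and 757 and also no NFATc2. The cluster of 4 near Bhlhe40, a transcriptional repressor of the basic helix-loop-helix family (chr6:108649454-108670312), held 1339, 2263 and 1771 tags and 1 NFATc2 summit. A further 4 near Gm5218 held 2170, 2213 and 2037 tags and 3 NFATc2 summits. After scaling by the ChIP totals of the libraries, the Bhlhe40 cluster was the only one of these 4 with a higher level with curdlan than in NT.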

How the data were processed

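The study measured H3K4me3 in 3 D1 libraries and NFATc2-V5 in 1, each with its input. Reads were mapped by the authors to mm9 with bowtie, and MACS (1.4.2 in the file headers) called peaks in each library against its input at a p-value threshold of 1e-05, with no pooling. The deposited lists give for each peak a count of tags, not normalized. The deposited fold enrichment is a ratio to the tags predicted from the local input. The authors' p-value is deposited as a score that multiplies its negative log10 by 10. The deposited FDR is in percent. The authors' header totals of ChIP tags, 14377535 to 21289349, were the depth used to scale tags to CPM.

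From these lists, overlaps, distances to 86879 TSS positions of the mm9 annotation (GENCODE M1), medians, 95% Wilson intervals (scipy 1.17.1) and exact counting intervals of tag ratios were computed with Python 3.11.15, and sequences were read with pysam 0.24.0. Intervals and counts were checked on simulated data. Of 32841 RefSeq promoter sequences (build GRCm38.p6, placed by sequence and not by coordinates), 31872 matched mm9 once. List symbols were matched through RefSeq synonyms, and Sox1 was not matched.

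The named peaks were the 10 with the most NT tags, the 5 longest, the 10 with the most NFATc2 tags, the 5 highest and 5 lowest centred ratios of fold enrichment in each comparison, the 3 on each side of the 5 kb limit and every peak near a listed gene. The peaks and lists were chosen with earlier results of these data known. The extremes of CPM, the RefSeq starts and the centring of CPM within 5 classes of NT tags were added after seeing the data. The extremes of CPM are given in part, and some peaks that these choices gave are not reported here. With 1 library per condition no p-value was computed.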

Additional observations from a re-analysis of the deposited data

How the results depend on the processing

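The number of stable TSS-distal peaks stayed within 1.5 times of 2210 under each alternative tried for distance, overlap, start sites, p-value and FDR (1603 to 2666). The values that moved were the following, and the cause was not tested. The share within a gene was 37.1% with protein-coding genes only and 43.1% without peaks within 5 kb of a RefSeq start. At 43.1% its interval overlapped that of the other distal peaks, from which such peaks had not been taken out. The share with NFATc2 was 10.5% at an NFATc2 threshold of 1e-10. For curdlan over NT, where 374 peaks were higher and 381 lower by centred fold enrichment, the counts were 106 and 152 by CPM, 61 and 79 by CPM per kb, 88 and 165 by CPM centred within 5 classes of NT tags, and 1244 and 43 without centring, with a median of 0.72. For curdlan over curdlan + FK506, where 374 were higher and 316 lower, they were 30 and 15, 14 and 17, 25 and 23, and 673 and 123 in the same order. The other 35 of 55 combinations of result and setting moved a count by less than 1.5 times, a share within its interval or a median ratio by less than a limit taken from the interquartile range over the peaks, within which the median of curdlan over curdlan + FK506 went from 0.05 to 0.33 without centring. No paired analysis was possible because each condition had 1 library and the labels carry no replicate numbers. Peaks were called at different depths of ChIP and input, and a tag count depends on where the caller placed the edges of a peak. Presence in 3 lists at 1 threshold does not measure an equal level of the mark.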
